A study of Mus musculus with 10 samples.

Results

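The mitochondrial DNA of the mouse encodes 37 genes, and all 37 were found in the count table by their symbols, which begin with mt- in the GENCODE annotation of GRCm39. They comprised 13 messenger RNAs, 2 ribosomal RNAs and 22 transfer RNAs, out of 78298 genes in the table. RNA was sequenced from whole hearts of female mice on a C57BL/6J background, 5 with the wild-type label and 5 with that of a germline p38δ knockout. The kinase p38δ, product of Mapk13, is activated by cell stress. Every heart was taken 72 h after a single intraperitoneal dose of 30 mg/kg doxorubicin, an anthracycline, so both groups carry the drug and its own effect was not measured. The comparison asks whether mitochondrially encoded RNA differed with p38δ genotype after the drug. The labels do not say that samples came from separate animals, so a p-value here speaks of the spread among these samples only. All wild-type titles begin with DOXF and all knockout titles with S. Genotype therefore cannot be told apart from a cohort.

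Mitochondrial DNA is a small circle copied and transcribed inside the organelle by enzymes that are themselves made from nuclear genes. Both of its strands are transcribed into long precursors, from which messengers, ribosomal RNAs and transfer RNAs are cut. The messengers encode core subunits of complexes I, III and IV of the respiratory chain and of ATP synthase, while complex II is encoded by nuclear genes alone. In heart muscle, which relies on oxidative phosphorylation, these RNAs are abundant. Doxorubicin is known to accumulate in mitochondria and to bind their inner membrane lipid cardiolipin.

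A stretch of mitochondrial DNA also lies in the nuclear genome, and reads from it cannot be told from most reads of the genes it copies. On chromosome 1 of GRCm39, bases 24650616 to 24655269 of the minus strand match mitochondrial bases 6390 to 11042, which is 28.5% of the circle. The 4654 aligned bases held 2 mismatches and 1 gap, an identity of 99.94%. The stretch contains 11 mitochondrial genes whole, among them mt-Co2, mt-Atp8, mt-Atp6, mt-Co3, mt-Nd3 and mt-Nd4l, and parts of mt-Co1 and mt-Nd4. The differences between the circle and its copy are the only bases in this stretch at which a read can show its origin, so each is printed here as a pair, 5′ to 3′, with the differing base in capitals.
mt-Co1, chrM:6390-6413, plus strand: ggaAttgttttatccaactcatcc
Gm29216, chr1:24655246-24655269, minus strand: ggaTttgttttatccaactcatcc
mt-Tg and mt-Nd3, chrM:9441-9481, plus strand: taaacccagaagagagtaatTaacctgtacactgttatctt
Gm71269, with Gm28438 over its inner part, chr1:24652178-24652218, minus strand: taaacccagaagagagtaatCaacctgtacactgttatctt
mt-Tr, chrM:9809-9848, plus strand: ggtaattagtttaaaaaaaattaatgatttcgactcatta
copy of mt-Tr, chr1:24651810-24651850, minus strand: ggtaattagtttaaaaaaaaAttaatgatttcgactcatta
Counted along the mitochondrial DNA, with the mitochondrial base first, the mismatches are A6393T in mt-Co1 and T9461C in mt-Nd3, and the third difference is 1 more A in the copy of mt-Tr.

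Where no difference lies within a gene, the sequences are the same letter for letter. The start of mt-Co2, which encodes a subunit of complex IV, and that of its copy Gm28661 are shown for this reason, with the start codon in capitals.
mt-Co2, chrM:7013-7072, plus strand: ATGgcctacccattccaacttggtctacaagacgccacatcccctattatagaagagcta
Gm28661, chr1:24654587-24654646, minus strand: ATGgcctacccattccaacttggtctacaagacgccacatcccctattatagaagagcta
All 681 aligned bases of Gm28661 matched mt-Co2. The aligned bases of Atp6-ps (678, mt-Atp6), Gm28437 (783, mt-Co3), Gm10222 (294, mt-Nd4l) and Gm28439 (876, part of mt-Nd4) also matched without a mismatch.

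Neighbouring mitochondrial genes share bases with each other as well. The messengers mt-Atp8 and mt-Atp6 overlap in 43 bases, printed here with the start codon of mt-Atp6 and the stop codon of mt-Atp8 in capitals.
mt-Atp8 and mt-Atp6, chrM:7927-7969, plus strand: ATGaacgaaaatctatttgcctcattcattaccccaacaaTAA
The overlap of mt-Nd5 with mt-Nd6 is between opposite strands and is 14 bases long, shown with the stop codon of mt-Nd5 in capitals.
mt-Nd5, chrM:13552-13565, plus strand: ttaatctcgagTAA
Among the messengers, mt-Nd6 is the one on the minus strand. The strand setting of the counting is not given in the sources used here, so reads of mt-Nd6 and reads of RNA antisense to it cannot be told apart.

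The libraries held 21403189 to 40627138 counts, and each pair within a group differed by more than sampling noise, with a chi-square per degree of freedom of 8.95 to 162. Wild-type library 1 stood furthest apart. Its summed level of 10 airway and alveolar markers was 1056 CPM, against 90.5 CPM in wild-type library 3 and 0.409 to 2.50 CPM in the other 8 (CPM is the count scaled to library size, as counts in 1000000). It was also highest for the atrial list (8 genes, 1480 CPM, against 341 in wild-type library 2 and 52.0 to 140 in the others), the fast skeletal muscle list (7 genes, 533 against 7.13 to 22.5 CPM), the fat list (6 genes, 365 against 24.7 to 44.2 CPM) and the macrophage list (7 genes, 420 against 96.0 to 150 CPM), as well as for mesothelium and epicardium (8 genes, 138 against 19.3 to 49.98 CPM). The thymus and T cell list (8 genes) was instead highest in knockout library 2, at 16.4 CPM against 0.666 to 3.54 CPM in the others. The 6 fibroblast markers summed to 1458, 896, 749, 763 and 762 CPM in wild type and 660, 672, 701, 707 and 713 CPM in the knockout. This sum was lower in every knockout library. Taken singly, 1.78% of all genes tested had groups that did not overlap in CPM, in either direction. By edgeR, 0 of the fibroblast genes were called, beside 0.353% of all genes tested. The level of 10 ventricular cardiomyocyte markers was lowest in wild-type library 1, 21308 CPM against 28940 to 62300, and knockout library 4 held the highest. Ventricular markers were thus present in every library, as the heart label says. The log2 fold changes of the members are given with and without wild-type library 1, and the part of these other tissues in the results was not tested. In bulk tissue, fewer cells of a type and less RNA per cell cannot be told apart.

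Mitochondrial messengers made up between 22.2% and 29.7% of all counts, and the groups overlapped. Their share was 22.2%, 28.9%, 27.6%, 27.5% and 29.1% in wild-type libraries 1 to 5, and 29.7%, 29.7%, 27.6%, 29.2% and 27.9% in knockout libraries 1 to 5. The mean was 27.1% ± 2.80 (SD, n = 5) in wild type and 28.8% ± 1.03 (SD, n = 5) in the knockout. The lowest share by a distance was that of wild-type library 1, and the other 9 libraries lay between 27.5% and 29.7%. With the counts of 12 nuclear copies added to the genes they match, the share was 29.3%, 38.1%, 36.5%, 36.8% and 38.5% in wild type and 39.5%, 39.4%, 36.4%, 38.8% and 36.6% in the knockout. So 7.03% to 9.79% of all counts stood under the names of the copies. For all members together, the log2 ratio of the mean shares, knockout over wild type, was 0.10, and it was 0.03 without wild-type library 1. Per nuclear protein-coding count in place of all counts, it was 0.16 with wild-type library 1 included. On that scale this library stood at 33.9%, the other wild-type libraries at 47.1% to 51.0% and the knockout libraries at 47.3% to 54.3%.

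**Figure D1:**
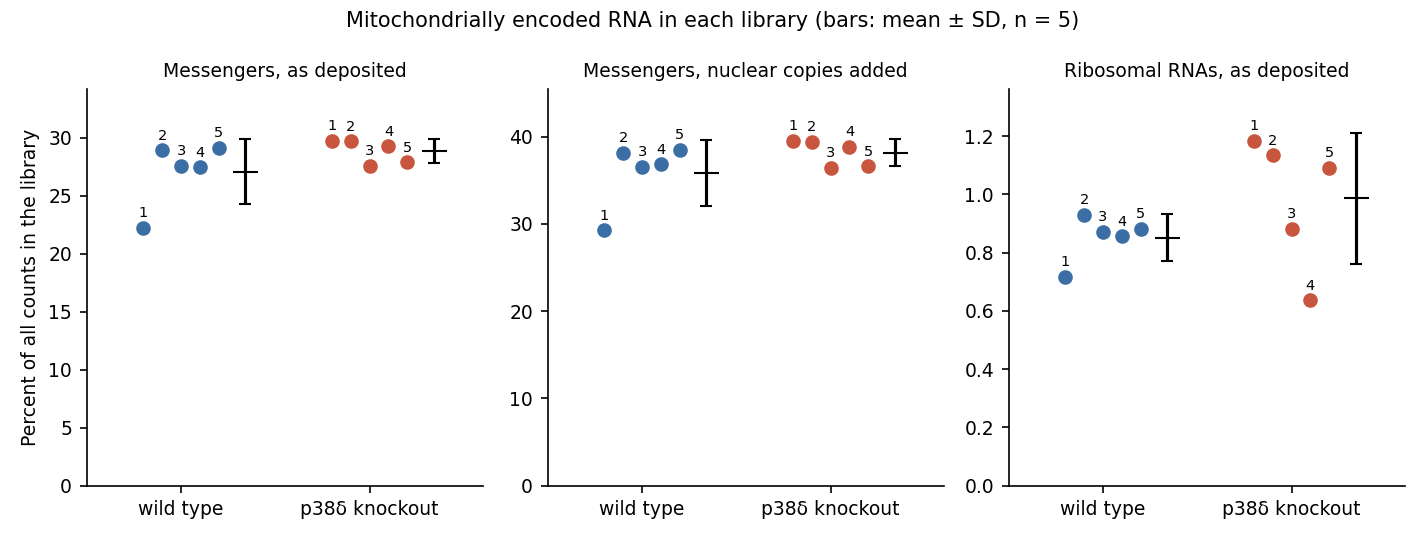
Percent of all counts in each library that came from mitochondrial messengers as deposited, from messengers with nuclear copies added, and from ribosomal RNAs. Each point is 1 library with its number, blue for wild type and red for p38δ knockout, and bars give the mean and SD of 5. Wild-type library 1 is lowest for the messengers at 22.2%, and the groups overlap in each panel.

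The share was also set against nuclear-encoded subunits of the same enzymes. Relative to the counts of nuclear respiratory chain and ATP synthase genes, the members held 1186%, 1237%, 1148%, 1026% and 1274% in wild type and 1287%, 1476%, 1161%, 1199% and 1306% in the knockout. On this scale wild-type library 1 lay within its group, and wild-type library 4 was lowest. Those nuclear subunits were themselves lowest in wild-type library 1, at 2.86% of nuclear protein-coding counts against 3.67% to 4.59% in the other 9 libraries.

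Read division between the genes and their copies changed the apparent levels of mt-Co2, mt-Co3 and mt-Atp6 far more than the groups differed. Of the counts that mt-Co2 and Gm28661 held together, 95.2% to 97.2% were listed under Gm28661. The copy Gm28437 held 92.8% to 94.9% of the joint counts with mt-Co3, and Atp6-ps held 81.6% to 86.7% of those with mt-Atp6. For Gm10222 and mt-Nd4l the copy's part ranged from 40.0% to 57.0%. Gm28439, although identical to mt-Nd4 over 876 bases, held 629 counts in all 10 libraries, and Gm29216 held 0.516% to 3.06% of the joint counts with mt-Co1. These proportions are of whole genes, and Gm29216 covers 31.3% of mt-Co1 with 1 mismatch and Gm28439 63.6% of mt-Nd4, so they do not compare the division of equal stretches.

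Among these pairs, the part of the copy spanned a wide range for mt-Nd3, a subunit of complex I. Its copy Gm28438 held 29.8%, 29.8%, 28.3%, 27.9% and 39.0% of their joint counts in wild type and 37.9%, 39.2%, 37.2%, 46.3% and 29.8% in the knockout. The groups overlapped through wild-type library 5 and knockout library 5. The log2 fold change of mt-Nd3 was -0.07 as deposited, and the copy's own was 0.40 ± 0.21 (SE, edgeR adjusted p = 0.740), so neither was called.

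**Figure D2:**
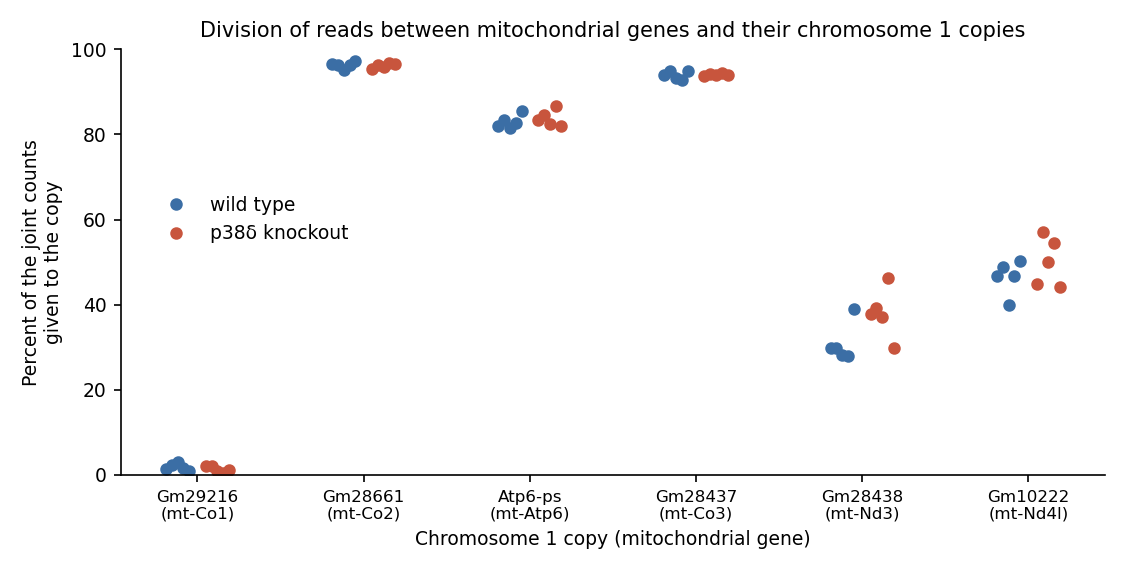
Percent of the joint counts of a mitochondrial gene and its chromosome 1 copy that were listed under the copy, for the 6 copies with the highest mean CPM. Each point is 1 library, blue for wild type and red for knockout. The copy's part is above 95% for Gm28661 in every library, and the groups overlap for each copy.

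Levels are compared between messengers per length, as CPM of the library total per kilobase (kb) with copies added, as a mean over all 10 libraries. The complex IV subunit mt-Co1 was highest at 71238, followed by mt-Co2 at 48114 and mt-Co3 at 43182, also of complex IV. The ATP synthase subunit mt-Atp6 came next at 38876, and then mt-Cytb, the subunit of complex III, at 31602. Each of these 5 was above the one after it in 10 of 10 libraries. Next came mt-Nd4 at 26130, mt-Atp8 at 25919 and mt-Nd1 at 25496, which did not hold a fixed order, since mt-Nd4 was above mt-Atp8 in 4 of 10 libraries and mt-Atp8 above mt-Nd1 in 6. The complex I subunits mt-Nd2 at 17415, mt-Nd5 at 16963 and mt-Nd6 at 16386 followed, again without a fixed order. The lowest were mt-Nd4l at 14401 and mt-Nd3 at 9047, likewise of complex I. The length used was that of the whole gene, with no correction for the size of the sequenced fragments. The shortest messengers were mt-Atp8 (204 bases), mt-Nd4l (297) and mt-Nd3 (348), and the part of their length in their place was not tested. As deposited, without the copies, mt-Co3 at 2586 and mt-Co2 at 1818 were last of the 13, so their place in the order rested on the copies' counts.

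**Figure D3:**
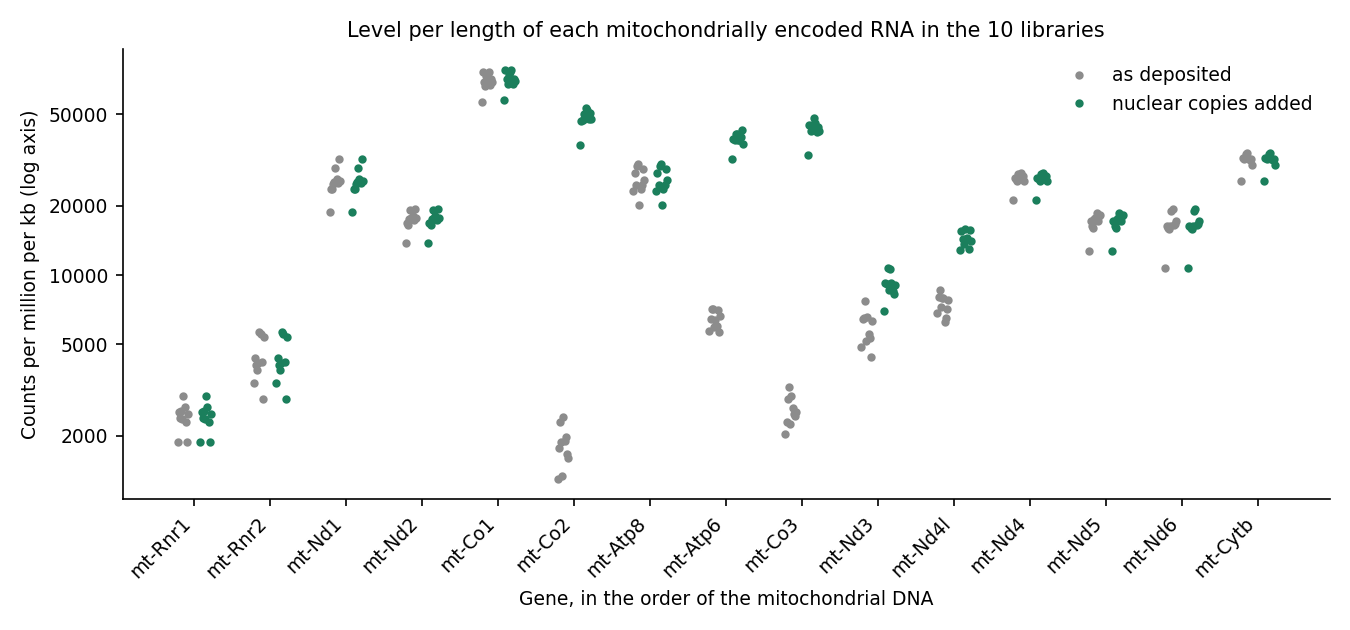
Level per length of the 13 messengers and 2 ribosomal RNAs in the 10 libraries, in CPM of the library total per kb on a log axis, as deposited in grey and with copies added in green. The grey and green points of mt-Co2, mt-Co3 and mt-Atp6 lie far apart, at means of 1818 and 48114 for mt-Co2, and coincide where no copy took counts.

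The ribosomal RNAs were sparse beside the messengers. The RNA of the small subunit, mt-Rnr1, stood at 2405 and that of the large subunit, mt-Rnr2, at 4355 CPM of the library total per kb. Together they took 0.718%, 0.930%, 0.871%, 0.856% and 0.882% of all counts in wild type and 1.18%, 1.13%, 0.881%, 0.637% and 1.09% in the knockout. The lowest library and the 3 highest were all in the knockout group. Cytosolic ribosomal RNA took 0.210% to 0.743% of counts, and whether libraries were made by depleting ribosomal RNA or by selecting polyadenylated RNA is not given in the sources used here.

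All 22 transfer RNAs were listed at 0 in every library, out of 313574616 counts in all. A count of 0 allows up to 3 counts, or 0.00957 CPM, for counting error only. Of 1359 nuclear genes of at most 80 bases, 0 had a count either, nor did all but 1 of 4580 genes of 81 to 150 bases, whereas 529 of 2733 genes of over 150 and up to 300 bases did. The 22 genes lie in that shortest class, at 59 to 75 bases. Transfer RNA levels were therefore not measured in either group, and no comparison of them was possible.

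No mitochondrially encoded gene passed the test between genotypes. Of the 15 members that passed the filter on low counts (all messengers and ribosomal RNAs), 0 were called by the edgeR quasi-likelihood test at an adjusted p under 0.05, where 0.353% of all 16700 genes tested were called. DESeq2 also called 0 of 15, beside 0.707% of all genes, and 0 of 15 had an unadjusted edgeR p under 0.05, beside 6.86% of all genes. Log2 fold changes, knockout minus wild type, ran from -0.07 to 0.33 with standard errors of 0.16 to 0.22, and 12 were above and 3 below 0. With copies added, 0 of 15 were called beside 0.354% of all genes, and 14 were above and 1 below 0. The median over the deposited counts was 0.14, beside -0.01 for all genes tested. Without wild-type library 1 the median was 0.02, with 9 above and 6 below 0. In that fit of the deposited counts the highest were mt-Rnr2 at 0.22 and mt-Nd1 at 0.19, and the lowest mt-Nd3 at -0.19 and mt-Atp8 at -0.18. Adding copies moved mt-Nd3 to -0.04 there and left mt-Atp8 at -0.18. In the fit of all 10 libraries, the lowest limit of a 95% interval was -0.45, for mt-Nd3, and the highest 0.74, for mt-Rnr2. The interval of a single gene was narrower, such as -0.35 to 0.27 for mt-Nd4l. For each gene, differences within its own interval were not excluded.

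**Figure D4:**
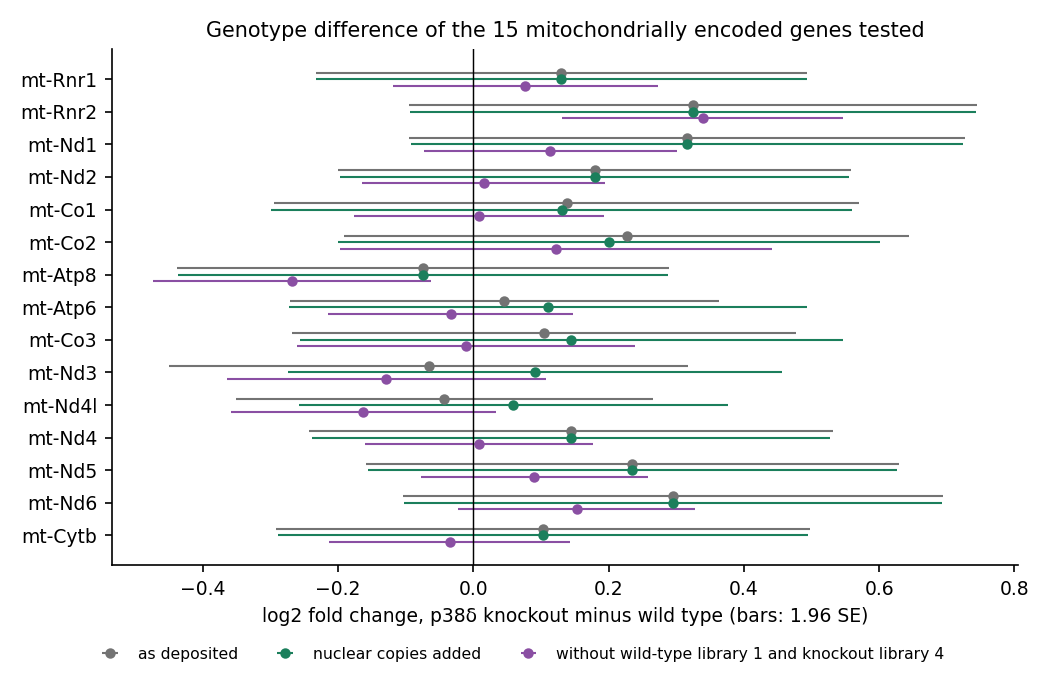
Log2 fold change, p38δ knockout minus wild type, of the 15 members tested, with bars of the 95% interval. Grey gives the deposited counts, green the counts with copies added, and purple the deposited counts without wild-type library 1 and knockout library 4. Points lie between -0.27 and 0.34, and the bars cross 0 for every member in grey and green but not for mt-Rnr2 and mt-Atp8 in purple.

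Complex I holds 7 of the 13 messengers. Its membrane subunit mt-Nd1 had 14035, 22850, 22608, 25325 and 25529 CPM in wild type and 29597, 25560, 24478, 33294 and 24452 CPM in the knockout, scaled by TMM factors as in the test. Wild-type library 1 was lowest and knockout library 4 highest, and the groups overlapped. The log2 fold change was 0.32 ± 0.21 (SE, edgeR adjusted p = 0.766), and it was 0.19 without wild-type library 1. The minus-strand messenger mt-Nd6, also a membrane subunit, had 4364, 8493, 8308, 8762 and 8833 CPM in wild type and 10418, 10180, 8713, 9380 and 8886 CPM in the knockout. Its highest 4 values were all knockout, while knockout library 3 lay within the wild-type range. The log2 fold change of 0.30 ± 0.20 (SE) was not called (edgeR adjusted p = 0.776), and was 0.15 without wild-type library 1.

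As a share of the library total, mt-Nd6 took 0.557%, 0.845%, 0.833%, 0.825% and 0.845% in wild type and 0.983%, 1.002%, 0.855%, 0.864% and 0.895% in the knockout. On that scale its groups did not overlap, which held for 1.7% of all genes tested. On log2(CPM + 1), the exact two-sided permutation test over the libraries gave p = 0.0238 for mt-Nd6 and p = 0.0317 for mt-Nd5, unadjusted, the only members of 15 under 0.05, where 7.22% of all genes tested were. The antiporter-like subunit mt-Nd5 had 18220, 31604, 29699, 30997 and 33417 CPM in wild type and 34148, 34562, 31841, 35770 and 33085 CPM in the knockout. Its log2 fold change was 0.24 ± 0.20 (SE, edgeR adjusted p = 0.824), and 0.11 ± 0.09 without wild-type library 1. The groups of mt-Nd5 overlapped, since wild-type library 5 lay above knockout libraries 3 and 5.

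For the other subunits of complex I, the fold changes were smaller. The antiporter-like subunits mt-Nd2 and mt-Nd4 had log2 fold changes of 0.18 ± 0.19 and 0.14 ± 0.20 (SE), which were 0.06 and 0.03 without wild-type library 1. As deposited, the small subunits mt-Nd3 and mt-Nd4l stood at -0.07 ± 0.20 and -0.04 ± 0.16 (SE), and at -0.19 and -0.14 without that library. Their log2 fold changes with copies added were 0.09 and 0.06, and -0.04 for each without that library. With copies added, mt-Nd3 had 1908, 3244, 3191, 3977 and 3121 CPM in wild type and 3920, 3251, 3031, 3113 and 3127 CPM in the knockout, and its highest value was in wild-type library 4. Summed over the complex, the mitochondrial messengers with copies reached 117699 ± 24185 CPM in wild type and 136248 ± 9188 in the knockout (SD, n = 5). Their ratio to the summed CPM of 37 nuclear subunits was 21.6 ± 1.73 and 24.5 ± 1.89, with overlapping groups.

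For complexes III and IV the groups overlapped at every gene. The single messenger of complex III, mt-Cytb, had 22987, 37316, 36336, 39428 and 40317 CPM in wild type and 41172, 37224, 36918, 39886 and 34218 CPM in the knockout. Its log2 fold change was 0.10 ± 0.20 (SE), and -0.01 without wild-type library 1. The catalytic subunit of complex IV, mt-Co1, was the most abundant gene of the libraries, with 68694, 118272, 106563, 109505 and 118172 CPM in wild type and 123096, 120117, 105592, 118999 and 105686 CPM in the knockout. Apart from wild-type library 1, all its values lay between 105592 and 123096. Its log2 fold change was 0.14 ± 0.22 (SE), and 0.02 without wild-type library 1. With copies added, mt-Co2 and mt-Co3 reached 35662 ± 2751 and 36008 ± 2938 CPM in the knockout against 31035 ± 6619 and 32568 ± 6926 in wild type (SD, n = 5). Their log2 fold changes, 0.20 and 0.14 with copies added, were 0.08 and 0.02 without wild-type library 1.

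Neither messenger of ATP synthase was called. The proton-channel subunit mt-Atp6 had 16983, 26702, 26200, 29770 and 29207 CPM in wild type and 27859, 26855, 27799, 31543 and 25016 CPM in the knockout with copies added. Its log2 fold change was 0.11 with copies added, and -0.005 without wild-type library 1. The small membrane subunit mt-Atp8 had 3720, 5729, 4996, 6478 and 6466 CPM in wild type and 4349, 4908, 5121, 6401 and 5234 CPM in the knockout. Here the highest values were wild-type libraries 4 and 5 and knockout library 4. The log2 fold change of mt-Atp8 was -0.07 ± 0.19 (SE, edgeR adjusted p = 0.952), and -0.18 without wild-type library 1. It was -0.27 ± 0.10 without wild-type library 1 and knockout library 4 (edgeR unadjusted p = 0.0231, adjusted p = 0.5505).

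Among the ribosomal RNAs, mt-Rnr2 had the largest log2 fold change of the 15, 0.33 ± 0.21 (SE, edgeR adjusted p = 0.766), and it stood at 0.22 without wild-type library 1. Its values were 4206, 6901, 6417, 6499 and 6850 CPM in wild type and 9533, 8947, 6748, 4980 and 8470 CPM in the knockout. Knockout libraries 1, 2 and 5 were above every wild-type library, and knockout library 4 was below 4 of them. Without wild-type library 1 and knockout library 4 the log2 fold change was 0.34 ± 0.11 (SE, edgeR unadjusted p = 0.00666, adjusted p = 0.358). In that fit 2 of 15 members, mt-Rnr2 and mt-Atp8, had an unadjusted p under 0.05, where 7.8% of all genes did. The small-subunit RNA mt-Rnr1 stood at 0.13 ± 0.19 (SE), and at 0.007 without wild-type library 1. Counts of mt-Rnr2 per count of mt-Rnr1 were 2.98, 2.82, 2.83, 2.50 and 2.89 in wild type and 3.16, 3.47, 3.03, 2.56 and 3.58 in the knockout, so 4 of 5 knockout libraries lay above all wild-type libraries.

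Scaling each library to its own mitochondrial messengers removed the difference in their total and left their make-up. In that fit, with copies added, 0 of 15 members were called by edgeR, where 0.21% of all genes were, and 1 of 15, mt-Atp8, had an unadjusted p under 0.05, beside 6.0% of all genes. Of messenger counts, mt-Atp8 took 1.62%, 1.49%, 1.37%, 1.66% and 1.61% in wild type and 1.04%, 1.23%, 1.38%, 1.52% and 1.44% in the knockout. The lowest 2 were knockout libraries 1 and 2, and the groups overlapped, as they did for each of the 13 messengers on this scale, where 1.49% of all genes had groups that did not. The log2 difference was -0.23 ± 0.11 (SE, edgeR unadjusted p = 0.0492, adjusted p = 0.553).

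At the other end, mt-Nd1 took 6.12%, 5.96%, 6.21%, 6.47% and 6.35% of messenger counts in wild type and 7.06%, 6.38%, 6.59%, 7.90% and 6.72% in the knockout. Only wild-type library 4 lay above the lowest knockout value, and the log2 difference was 0.16 ± 0.07 (SE, edgeR adjusted p = 0.553). Without wild-type library 1 and knockout library 4 it was 0.10 ± 0.10. For mt-Nd6 the share was 1.90%, 2.22%, 2.28%, 2.24% and 2.20% in wild type and 2.49%, 2.54%, 2.35%, 2.22% and 2.44% in the knockout, and knockout library 4 alone lay within the wild-type range. The largest share was that of mt-Co1, 28.4% to 31.6% over all 10 libraries. Log2 differences of the other 10 messengers lay between -0.11 for mt-Nd4l and 0.08 for mt-Nd5.

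**Figure D5:**
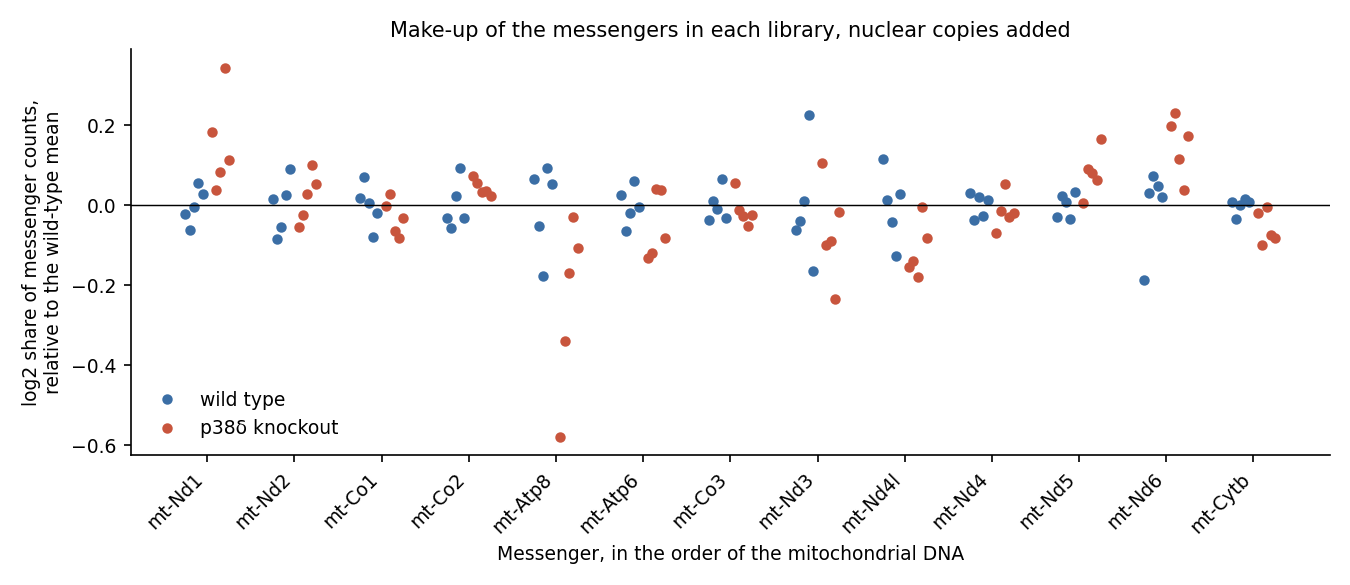
Share of each messenger among the counts of all 13 messengers with copies added, as log2 relative to the wild-type mean, for each library. Blue points are wild type and red points p38δ knockout. The points of mt-Atp8 lie mostly below 0 in the knockout and those of mt-Nd1 and mt-Nd6 mostly above, and the groups overlap for each messenger.

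The members varied between libraries about as much as other genes. The coefficient of variation of CPM over all 10 libraries had a median of 17.4% for the 15 members, from 13.2% for mt-Atp6 to 23.9% for mt-Rnr2 as deposited. It was 17.5% over all genes tested and 15.5% over the 485 other genes of highest mean CPM.

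The nuclear side of mitochondrial gene expression was followed in 13 lists of 273 genes, all tested. Of these, 0 were called by edgeR and 0 by DESeq2 (0.353% and 0.707% of all genes), and 8, or 2.93%, had an unadjusted edgeR p under 0.05, beside 6.86% of all genes. The median log2 fold change was 0.04 over all 273, and -0.04 without wild-type library 1, with list medians from -0.02 for mitochondrial aminoacyl-tRNA synthetases to 0.08 for nuclear complex I subunits in all 10 libraries. None of the 11 genes that transcribe mitochondrial DNA was called, and the 2 of smallest p were Mterf4 at -0.30 ± 0.12 and Mterf1b at -0.47 ± 0.28 (SE), both of the family of mitochondrial transcription termination factors. In the 19 genes of DNA maintenance, Mpv17, an inner membrane protein, was at 0.24 ± 0.11 and Rrm2b, a subunit of ribonucleotide reductase, at 0.15 ± 0.07 (SE).

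Of 19 genes that cut, polyadenylate or stabilise mitochondrial RNA, 0 were called. Fastkd5, a protein of mitochondrial RNA granules, had 7.31, 6.93, 7.18, 7.60 and 7.20 CPM in wild type and 5.63, 4.96, 6.81, 6.42 and 6.86 CPM in the knockout. Each knockout value was below each wild-type value, which held in either direction for 1.78% of genes. The exact permutation test gave p = 0.00794 for Fastkd5, the smallest that 5 against 5 libraries allow, while edgeR gave a log2 fold change of -0.24 ± 0.11 (SE, adjusted p = 0.714). Its relative Fastkd1 stood at 0.24 ± 0.10 (SE, edgeR adjusted p = 0.707).

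Among the genes of mitochondrial translation, the 83 ribosomal proteins had a median log2 fold change of 0.04, or -0.03 without wild-type library 1, and 0 were called. The smallest p of all 13 lists was that of Mrps10, a protein of the small subunit, with 11.9, 13.1, 12.5, 15.5 and 13.9 CPM in wild type and 18.6, 14.3, 17.4, 18.6 and 16.7 CPM in the knockout. Wild-type library 4 lay above knockout library 2, and otherwise the groups were apart. Its log2 fold change was 0.36 ± 0.10 (SE, edgeR unadjusted p = 0.00360, adjusted p = 0.442). Mrpl28 of the large subunit stood at 0.24 ± 0.12 (SE). Of 19 aminoacyl-tRNA synthetases, Lars2 charges the leucine transfer RNAs. It had 161, 181, 326, 361 and 140 CPM in wild type and 370, 416, 466, 421 and 144 CPM in the knockout. The lowest values of the groups were those of wild-type library 5 and knockout library 5, whose shared number does not pair them. Nuclear ribosomal RNA took 0.300%, 0.302%, 0.530%, 0.477% and 0.210% of counts in wild type and 0.555%, 0.629%, 0.743%, 0.691% and 0.212% in the knockout. Its lowest share in each group was in the same libraries, and its part in the counts of Lars2 was not tested. Vars2, the valine enzyme, was at -0.35 ± 0.15 (SE). In the lists of transfer RNA modification (12 genes), ribosomal RNA modification and assembly (16 genes) and translation factors (14 genes), the genes of smallest p were Gtpbp3 and Nsun2, Noa1 and Mettl15, and Rmnd1 and Mtrf1l, between -0.22 and 0.18 on the log2 scale.

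The 81 nuclear subunits of the respiratory chain and ATP synthase gave 0 calls, where 0.353% of all genes were called. Complex I had 30 of 37 subunits above 0, complex II 4 of 4, complex III 7 of 9, complex IV 8 of 13 and ATP synthase 17 of 18, with list medians from 0.03 to 0.08, while 46.6% of all genes tested were above 0. Without wild-type library 1 these counts turned, to 7 of 37, 1 of 4, 0 of 9, 0 of 13 and 2 of 18, with medians from -0.09 to -0.04, while 50.9% of all genes were above 0. Beside them the median of the 13 mitochondrial messengers was 0.14, and 0.02 without that library. The complex I subunit Ndufb10 had 129, 202, 197, 260 and 227 CPM in wild type and 162, 142, 174, 215 and 154 CPM in the knockout. Its log2 fold change was -0.26 ± 0.17 (SE, edgeR adjusted p = 0.766). Without wild-type library 1 alone it was -0.38 ± 0.12 (SE, edgeR adjusted p = 0.5206). Without wild-type library 1 and knockout library 4 it was -0.49 and passed the test (edgeR adjusted p = 0.0385). Ndufb10 was the only call among the 273 genes in that fit, where 0.521% of all genes were called. The 2 libraries left out held its lowest wild-type and its highest knockout value. Atp5if1, the inhibitor of ATP synthase, stood at 0.38 ± 0.16 (SE, edgeR adjusted p = 0.714).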

How the data were processed

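Gene expression was measured by RNA sequencing in 10 mouse heart samples. Per the labels' protocols, STAR 2.5.2 placed the reads on GRCm39, and per the submitters' processing notes RSEM 1.3.0 was used. The authors deposited expected counts per gene, which RSEM obtains by dividing reads that match several genes, which leaves near-identical genes uncertain. The deposited counts held 0 values that were not whole. Not given in the sources used here are annotation release, library type and strand setting.

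Symbols came from GENCODE M39 (78168 of 78298 identifiers found). Genotypes were compared with edgeR 4.0.16 (R 4.3.3), by quasi-likelihood F tests on all 16700 genes that passed its filter (minimum count 10), with TMM factors, robust dispersions, no covariate and Benjamini-Hochberg adjustment at 0.05. Standard errors are the absolute log2 fold change over the square root of F, and 95% intervals are normal intervals from them. Such intervals are narrower than the F test allows. That of Mrpl28 was 0.01 to 0.48, at an unadjusted edgeR p of 0.0615. CPM are counts in 1000000 of the TMM-scaled library of tested genes unless given per library total. Single genes also had an exact permutation test over all 252 divisions of the libraries on log2(CPM + 1). For make-up, library size was the summed count of the 13 messengers. Copies were found with BLAST 2.17.0 (95% identity over 200 bases), and their counts were added to the gene matched as an alternative. Sequences were read from the GRCm39 genome. DESeq2 1.42.0, limma 3.58.1, other scalings and filters, and leaving out libraries were further alternatives. Sums over members were not tested.

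All members are accounted for, copies were named by highest mean CPM (6), and nuclear lists by calls and the 2 smallest p. The copy Gm28439 lies outside these rules and was named after its values were seen. The members and lists were chosen with earlier results of these data known. Library totals, 21403189 to 40627138 counts, limit precision little for genes this abundant, so the spread between libraries sets the error.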

Additional observations from a re-analysis of the deposited data

Results flagged for a closer look

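In 62 groups of 5 values (each member's CPM and share of messengers with copies added, and the summed shares, in each genotype), 15 held a value that stood far from the other 4 by Dixon's criterion, which chance alone meets in about 5% of groups. Many of them are the same library. Wild-type library 1 was lowest for mt-Rnr1 (1412 CPM, others 2269 to 2596), mt-Rnr2 (4206, others 6417 to 6901), mt-Nd1 (14040, others 22610 to 25530) and mt-Co1 (69690, others 109900 to 121000). It was also lowest for mt-Co2 (19610 CPM, others 32260 to 36520), mt-Atp6 (16980, others 26200 to 29770), mt-Co3 (20510, others 33190 to 37600) and mt-Nd4 (22900, others 36150 to 39760). The same held for mt-Nd5 (18220 CPM, others 29700 to 33420), mt-Nd6 (4364, others 8308 to 8833) and mt-Cytb (22990, others 36340 to 40320). In that library all messengers with copies took 29.27% of counts, against 36.53% to 38.48% in the other wild-type libraries, and its airway and alveolar markers summed to 1056 CPM. Their part in these values was not tested.

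The other values set apart concerned single genes. As a share of messenger counts, mt-Nd6 took 1.904% in wild-type library 1, below 2.196% to 2.281% in the other 4, so this messenger was low there beside the other messengers too. The share of mt-Cytb was 9.733% in wild-type library 2 and 9.975% to 10.07% in the other wild-type libraries. In the knockout group mt-Nd3 stood at 3920 CPM in library 1 and at 3031 to 3251 in the others.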

How the results depend on the processing

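The count of called members was 0 under each of 33 settings, the reported one included, with and without copies, by edgeR, DESeq2 and limma voom, and the make-up fits also gave 0. Called nuclear genes of mitochondrial gene expression rose from 0 to 1 (Ndufb10) without wild-type library 1 and knockout library 4, and stayed at 0 in the other alternatives. Scaling by library totals alone moved the median log2 fold change of all genes by -0.10, from -0.01 to -0.12, and that of the 15 members to 0.06. The members' median was 0.008 without wild-type library 1 and knockout library 4, and 0.04 with limma voom quality weights. Leaving out 1 library at a time gave medians from 0.02 to 0.19, and log2 ratios of the share of all counts from 0.032 to 0.129, in each case lowest without wild-type library 1. That ratio was 0.164 per nuclear protein-coding count, with wild-type library 1 included. Signs changed in some alternatives, though never for a called value, for mt-Nd4l (in 13 of the 33), mt-Nd3 (12), mt-Atp6 (6), mt-Cytb (4) and mt-Co3 (2). Alternatives that joined copies with another scaling, with left-out libraries or with the other 12 messengers as reference, and the signs of the nuclear lists without wild-type library 1, were chosen after seeing the data. No paired analysis was possible because the knockout titles carry no replicate numbers shared with wild type.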
